A study of Rattus norvegicus with 25 samples.

Results

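The genes described here are 10 serotonin receptor genes of the rat, Htr1a, Htr1b, Htr1d, Htr1f, Htr2a, Htr2c, Htr3a, Htr4, Htr5a and Htr7, measured by RNA-seq of bulk poly-A RNA in the left basolateral amygdala (BLA) and the left dentate gyrus (DG). They were chosen by name, with case ignored, and each name had 1 identifier among the 26312 listed for each region. All animals were adult, male, wild-type Sprague-Dawley rats, killed on day 9. Stressed rats had gone through a single exposure of 3 h to immobilization together with a predator's scent, and controls had stayed in their home cages apart from a cage change, all being tested for behavior afterwards. Stressed rats were also kept in another room for the first nights after stress, which cannot be told apart from the stress itself. A composite score of anxiety-like behavior then split the stressed rats into stress-low animals, with a score of 0 to 2, and stress-high animals, with a score of 13 to 15, while control scores lay between 0 and 6. The groups after stress were thus picked by behavior from the 2 ends of a range, and a library came from the pooled punches of 1 region of 1 animal.

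By their labels, 7 control, 3 stress-low and 3 stress-high libraries came from the BLA, and 6, 3 and 3 from the DG. The control that lay farthest out in a principal component analysis was left out, animal 2 for the BLA and animal 35 for the DG, so that 12 BLA and 11 DG libraries entered the values given here. Library names also mark each control as low or high. Both left-out controls were marked low, and controls of both kinds were pooled. The labels of the BLA library of animal 35 disagreed between its library name (control) and its treatment field (stressed), and it was used as a control. Without it, 0 receptors reached an unadjusted p under 0.05 in either BLA comparison with controls. Animal 30 was a stress-low animal with a BLA library only, and animal 33 one with a DG library only. A BLA library held 12709493 to 22801247 expected counts in total and a DG library 11656439 to 19477932. In bulk tissue, fewer cells of a type and less RNA per cell cannot be told apart.

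Serotonin reaches both regions along the axons of raphe neurons, and its receptors decide how a target cell responds. The receptors of the Htr1 class and Htr5a couple to Gi/o proteins, which lower cyclic AMP and, for Htr1a, open inwardly rectifying potassium channels. Htr2a and Htr2c couple to Gq/11 proteins and phospholipase C, Htr4 and Htr7 couple to Gs proteins and raise cyclic AMP, and Htr3a is a subunit of the only serotonin receptor that is itself an ion channel. Messenger RNA lies mostly in cell bodies, so the RNA of receptors placed on incoming axons, such as much of Htr1b and Htr1d, is made outside the punched tissue.

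Tissue labels were checked against markers. The dentate granule cell genes Prox1 and C1ql2 had median levels of 73.3 and 336.3 TPM (a share of all transcripts, corrected for gene length) in the DG and of 2.57 and 2.81 TPM in the BLA. Dsp, of the same list, had 6.51 TPM in the DG and 0.195 TPM in the BLA. The other 4 genes of that list did not mark the DG, since Calb1 (105.3 TPM in the DG, 135.4 in the BLA) and Npnt (1.46 and 1.70 TPM) were not higher there and Tdo2 and Lct had medians of 0.070 and 0.010 TPM. Of the 7 genes listed for principal cells of the BLA, Etv1 (107.7 TPM in the BLA, 9.62 in the DG) and Lypd1 (110.2 and 28.4 TPM) were higher in the BLA, whereas Rspo2 (12.0 and 20.1 TPM) and the excitatory vesicular transporter Slc17a7 (1054 and 1827 TPM) were higher in the DG, as were the other 3.

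The first question was which serotonin receptors these tissues expressed. In the BLA, Htr2c led with a mean of 37.1 ± 9.27 TPM (SD, n = 12) and held 34.2% of the summed TPM of the 10 genes. Htr1b followed with 23.3 ± 3.48 TPM and Htr2a with 12.7 ± 2.09 TPM. Every BLA library had more Htr2c than any library had Htr1b, and likewise for Htr1b over Htr2a. Below them the ranges ran into each other. Htr5a had 9.82 ± 0.686 TPM, Htr3a 7.25 ± 1.3 TPM, Htr1f 7.00 ± 1.13 TPM and Htr1a 6.02 ± 1.86 TPM, and Htr3a exceeded Htr1f in only 7 of 12 libraries. The lowest levels were those of Htr7 (2.93 ± 0.601 TPM), Htr4 (1.41 ± 0.616 TPM) and Htr1d (0.878 ± 0.525 TPM).

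The DG was dominated by 1 receptor. Htr1a had a mean of 73.6 ± 12.1 TPM (SD, n = 11) and held 71.6% of the summed TPM of the 10 genes. Its lowest library, at 56.23 TPM, lay far above the highest value of the next gene, Htr4, at 9.88 TPM. Htr4, which raises cyclic AMP where Htr1a lowers it, had a mean of 7.50 ± 1.63 TPM and exceeded Htr5a (5.51 ± 1.04 TPM) in 11 of 11 libraries, although their ranges overlapped. Htr2a had 5.06 ± 1.38 TPM, Htr3a 3.05 ± 0.653 TPM and Htr1f 2.76 ± 0.720 TPM. Htr7 (1.77 ± 0.345 TPM), Htr1b (1.76 ± 0.450 TPM) and Htr2c (1.70 ± 0.238 TPM) could not be ranked against each other.

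**Figure D1:**
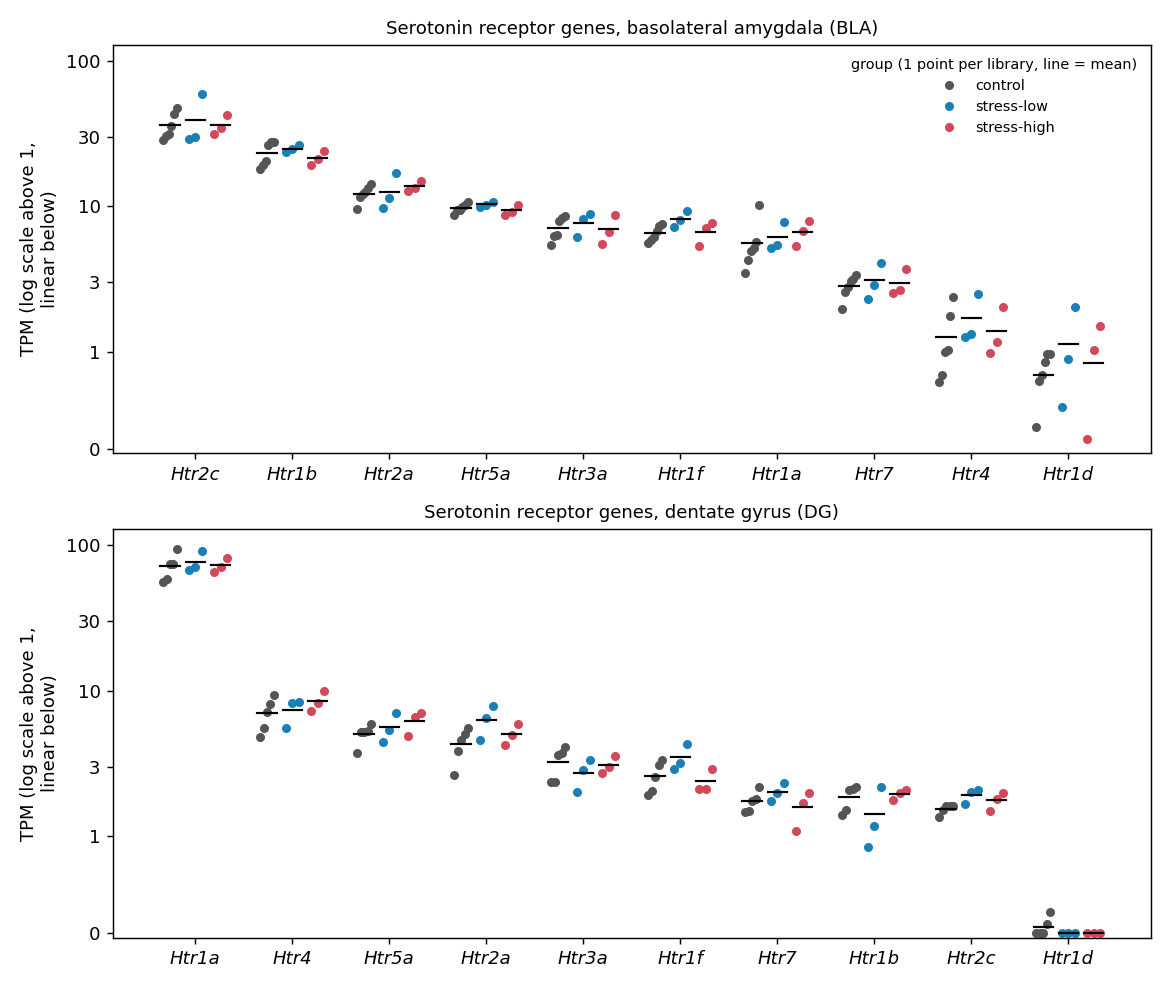
Levels of the 10 serotonin receptor genes in TPM (vertical axis, logarithmic above 1 and linear below) for each BLA library (top, n = 12) and DG library (bottom, n = 11), with genes ordered by their mean, points colored by group and a line at each group mean. Htr2c, Htr1b and Htr2a led in the BLA, Htr1a stood alone in the DG, and the groups of a gene overlapped in nearly all cases.

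Htr1d was too low to compare in the DG. It was listed at 0 in 9 of the 11 DG libraries and reached at most 2 counts and 0.22 TPM in a control. A count of 0 there allows a level of up to 0.271 to 0.466 TPM, the level that 3 counts would give in each library, counting error only. In the BLA all 10 genes passed the filter on low counts, yet Htr1d had between 1 and 29 counts per library and Htr4 between 9 and 39, and Htr1b had 6 to 24 counts in the DG. Fold changes of these genes carried the widest intervals, as the plot of fold changes shows.

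The same animals could be set side by side in 9 cases in which both libraries were used. Htr1a was higher in the DG library of 9 of 9 animals, by a median of 13.3 times (range 8.29 to 18.2), and Htr4 in 9 of 9, by a median of 6.54 times (range 3.55 to 11.8). Htr2c was higher in the BLA library of every one of these animals, by a median of 19.1 times (range 14.6 to 28.4), and Htr1b by a median of 10.8 times (range 9.28 to 28.1). The ratios of the next 5 receptors were smaller. Htr2a was higher in the BLA by a median of 2.58 times, Htr1f by 2.52 times, Htr3a by 2.44 times, Htr5a by 1.75 times and Htr7 by 1.44 times, and for Htr7 the smallest ratio among the animals was 1.0. Htr1d, listed at 0 in most of these DG libraries, was higher in the DG in 0 of 9 animals and is given no ratio. The region and the way a library was made and quantified cannot be told apart in these ratios, because the effective length of a gene with 1 transcript fell short of its full length by 50 bases for BLA libraries but by 261 to 274 bases for DG libraries, so they are given with no test.

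**Figure D2:**
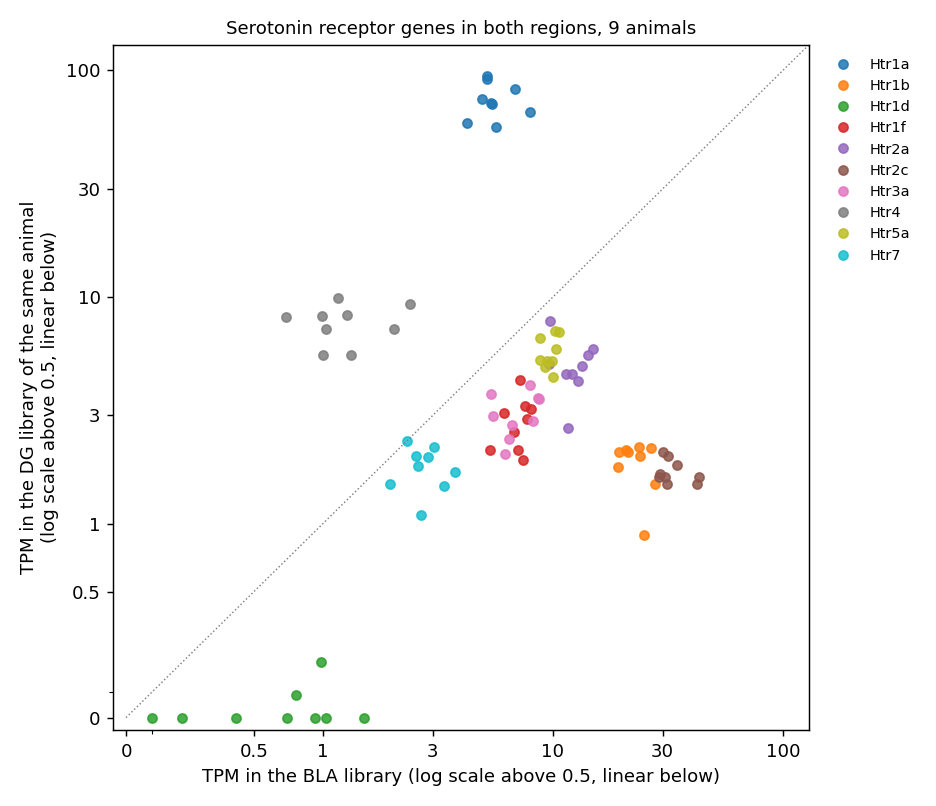
TPM of each serotonin receptor gene in the BLA library (horizontal axis) and in the DG library (vertical axis) of the same animal for 9 animals, on axes that are logarithmic above 0.5 TPM and linear below, with a dotted line at equal levels. Htr1a and Htr4 lie above the line and the other genes below it.

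The second question was whether receptor RNA differed between rats with low and high anxiety-like behavior after stress, or between these and controls. No gene of the genome passed an adjusted p of 0.05 in edgeR's quasi-likelihood test in any of the 6 comparisons (0% of the 15230 BLA genes and 0% of the 14080 DG genes, Benjamini-Hochberg). DESeq2 called 0, 2 and 2 BLA genes and 3, 2 and 1 DG genes for stress-low against stress-high, control against stress-low and control against stress-high, and limma on log2(TPM + 1) called 0, 1 and 0 and 0, 0 and 0. None of the genes so called was a serotonin receptor. Members were therefore read at an unadjusted p under 0.05, which all tested genes passed in 1.98% (302 genes), 2.75% (419) and 2.57% (392) of cases in the BLA and in 3.12% (440), 6.9% (972) and 2.19% (309) in the DG, in the same order. Fold changes are log2 values of the second group over the first, with their standard errors (SE). Where nothing says otherwise, they come from the edgeR fit of the 3 groups of a region.

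In the BLA, 0 of the 10 receptors reached an unadjusted p under 0.05 in any of the 3 comparisons. Between stress-low and stress-high animals the fold changes ran from -0.26 for Htr4 to 0.16 for Htr1a, with a median of -0.11 against 0.00 for all genes. Htr1f, which couples to Gi/o, had the smallest p. Its level was 7.18, 9.33 and 8.06 TPM in the stress-low animals 22, 30 and 34 and 5.34, 7.69 and 7.06 TPM in the stress-high animals 7, 19 and 20. Both groups thus held values between 7 and 8 TPM, and the fold change of -0.26 (SE 0.18) had an unadjusted p of 0.166 and an adjusted p of 1.0. None of the 10 genes had ranges that did not overlap between these groups, as 5.89% of all tested genes did.

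One stress-low animal held most of the highest receptor values in the BLA. Animal 30 had the highest value of the 12 libraries for 7 of the 10 receptors, namely Htr1d, Htr1f, Htr2a, Htr2c, Htr3a, Htr4 and Htr7. The share of all tested genes that were highest in animal 30 was not computed, so this count is not read as a trait of the receptors. Its Htr2c level was 59.02 TPM, while the stress-low animals 22 and 34 had 29.30 and 30.24 TPM, the stress-high animals 31.51, 34.71 and 42.33 TPM, and the controls between 28.81 and 47.65 TPM with a median of 33.8. Its Htr2a level was 16.91 TPM, beside 9.70 and 11.41 TPM in animals 22 and 34 and 12.87, 13.35 and 14.98 TPM in the stress-high animals. Without animal 30 the fold change of Htr2a moved from 0.16 (SE 0.15, unadjusted p = 0.302) to 0.37 (SE 0.13, edgeR, unadjusted p = 0.0101, adjusted p = 1.0). Animal 30 held the highest Htr2a value, so a rise of this fold change followed from leaving it out. In the fit without animal 30, 603 of 15404 genes had an unadjusted p under 0.05. The median fold change over the 10 receptors then turned from -0.11 to 0.15. The library of animal 30 held 21115339 counts. The summed TPM of its striatal and central amygdala markers was 851, with 284 and 424 in animals 22 and 34 and 866 in control animal 35. The summed TPM of the oligodendrocyte markers in animal 30 was 4018, the highest of the 12 libraries. That of its BLA principal cell markers was the lowest, at 1355. The part of these in its receptor levels was not tested.

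Between control and stress-low animals, 10 of 10 fold changes in the BLA were above 0, from 0.01 for Htr2a to 0.57 for Htr1d (SE 0.57). Their median was 0.09, against -0.002 for all tested genes. The 10 values came from the same 3 stress-low libraries, so they are not 10 separate results. Htr1f again had the smallest p, with a fold change of 0.28 (SE 0.15, unadjusted p = 0.0948, adjusted p = 1.0). The levels of Htr1f in the controls used lay between 5.64 and 7.53 TPM with a median of 6.44. Of the 3 stress-low animals, 2 exceeded all of these. With the left-out control animal 2 the control levels reached 9.42 TPM, above every stress-low animal. Without control animal 28 the fold change of Htr1f was 0.34 with an unadjusted p of 0.0462. In that edgeR fit 520 of 15196 genes had an unadjusted p under 0.05. Without stress-low animal 30 the median over the receptors was -0.03. Ranges overlapped for each of the 10 genes, and 1.39% of all tested genes had ranges that did not.

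Between control and stress-high animals the BLA fold changes ran from -0.12 for Htr1b to 0.31 for Htr1d, with a median of 0.05. Htr2a, with 12.87, 13.35 and 14.98 TPM in stress-high animals and 9.57 to 14.23 TPM (median 12.4) in controls, had the smallest p, at a fold change of 0.17 (SE 0.13, unadjusted p = 0.208, adjusted p = 1.0). Htr2c differed by 0.00 (SE 0.18), with a 95% confidence interval from -0.38 to 0.38. Htr1a had a control at 10.19 TPM, animal 27, far from the other 5 at 3.47 to 5.66 TPM, and the stress-high animals had 5.37, 7.92 and 6.82 TPM. Without animal 27 its fold change of 0.26 (SE 0.26) became 0.49 (SE 0.19) with an unadjusted p of 0.0226 and an adjusted p of 1.0. In that edgeR fit 439 of 15201 genes had an unadjusted p under 0.05. Here too the ranges of all 10 genes overlapped, beside 0.978% of all tested genes that did not.

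**Figure D3:**
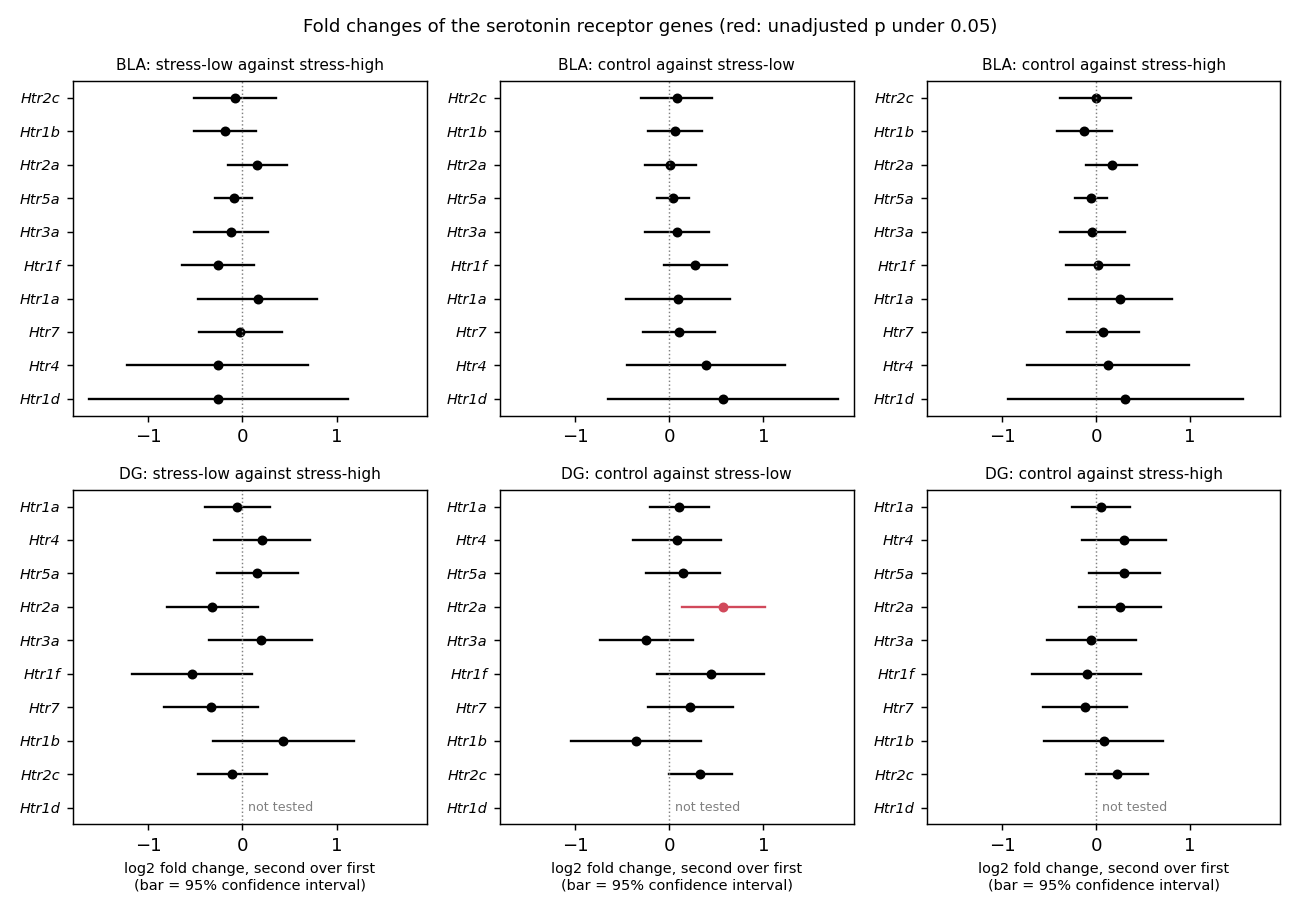
Log2 fold change of each serotonin receptor gene in the 3 comparisons of the BLA (top) and the DG (bottom), second group over first, with points for the estimate and bars for the 95% confidence interval from edgeR. Only Htr2a in the DG of stress-low animals against controls, in red, had an unadjusted p under 0.05, and Htr1d was not tested in the DG.

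In the DG, 1 of 9 receptors reached an unadjusted p under 0.05 between control and stress-low animals, where 6.9% of all tested genes did. This was Htr2a, the Gq/11-coupled receptor through which many hallucinogens act. Controls 2, 14, 17, 28 and 32 had 3.83, 2.63, 5.07, 4.58 and 5.52 TPM, and the stress-low animals 22, 33 and 34 had 7.80, 6.45 and 4.59 TPM. Animals 22 and 33 exceeded every control, while animal 34 lay among them. The fold change was 0.58 (SE 0.20, 95% confidence interval 0.14 to 1.0, unadjusted p = 0.0137, adjusted p = 0.718), so the difference did not hold after adjustment over all genes. Without animal 22 it was 0.38 (SE 0.22, unadjusted p = 0.113), and leaving out any other single library kept the unadjusted p between 0.00310 and 0.0349.

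Htr2c, the other Gq/11-coupled receptor, lay near the threshold in the same comparison. Controls had 1.36, 1.60, 1.60, 1.5 and 1.60 TPM and stress-low animals 1.65, 2.02 and 2.07 TPM, from 45 to 77 and 59 to 73 counts. The ranges did not overlap, as for 3.71% of all tested genes, and no other receptor had this pattern here. Its fold change was 0.33 (SE 0.16, unadjusted p = 0.0549, adjusted p = 0.723). The other fold changes ran from -0.35 (SE 0.32) for Htr1b to 0.44 (SE 0.26) for Htr1f, and the median over the 9 receptors was 0.14 against 0.00 for all genes. Htr1a, the leading receptor of the DG, differed by 0.11 (SE 0.14), with 56.23 to 94.47 TPM in controls and 68.10 to 91.62 TPM in stress-low animals. Without control animal 14, 3 receptors reached an unadjusted p under 0.05, which were Htr2a (0.45), Htr1f (0.58) and Htr2c (0.37), and 1587 of all genes did. Without stress-low animal 22, the edgeR fold change was 0.42 for Htr2c (unadjusted p = 0.0336) and -0.83 for Htr1b (unadjusted p = 0.0368). The share of all genes past the threshold in that fit is not given, so these values are not read as a result about the receptors.

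Between stress-low and stress-high animals 0 of 9 DG receptors reached an unadjusted p under 0.05. Htr1f came closest, with 4.32, 2.89 and 3.20 TPM in the stress-low animals 22, 33 and 34 and 2.12, 2.88 and 2.12 TPM in the stress-high animals 7, 19 and 20. The ranges did not overlap, as for 8.69% of all tested genes, but they came within 0.01 TPM of each other. The counts behind these values were 20 to 37 and 19 to 31, and the fold change was -0.54 (SE 0.30, unadjusted p = 0.0903, adjusted p = 1.0). The remaining fold changes lay between -0.34 for Htr7 and 0.43 for Htr1b (SE 0.35), with a median over all 9 of -0.06. Without animal 22 the edgeR fold change of Htr1b was 0.91 (unadjusted p = 0.0314). Without animal 34 that of Htr2a was -0.50 (edgeR, unadjusted p = 0.0457) beside -0.32 with all 3. How many of all genes passed the threshold in these fits is not given, so neither value is read as a result about the receptors.

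Between control and stress-high animals 0 of 9 DG receptors reached an unadjusted p under 0.05, and ranges overlapped for all of them, beside 1.46% of all tested genes without overlap. Htr5a had the smallest p, with 3.72, 5.22, 5.21, 5.29 and 5.89 TPM in controls and 4.90, 6.57 and 7.05 TPM in stress-high animals, at a fold change of 0.30 (SE 0.18, unadjusted p = 0.111, adjusted p = 1.0). The stress-high animals 19 and 20 were above every control, and animal 7 was not. Without animal 7 the edgeR fold change was 0.42 with an unadjusted p of 0.0398, and the share of all genes past the threshold in that fit is not given. Htr1a differed by 0.05 (SE 0.14), and the stress-high libraries had 71.60, 65.63 and 82.56 TPM. The comparisons with stress-low and with stress-high animals shared their controls.

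**Figure D4:**
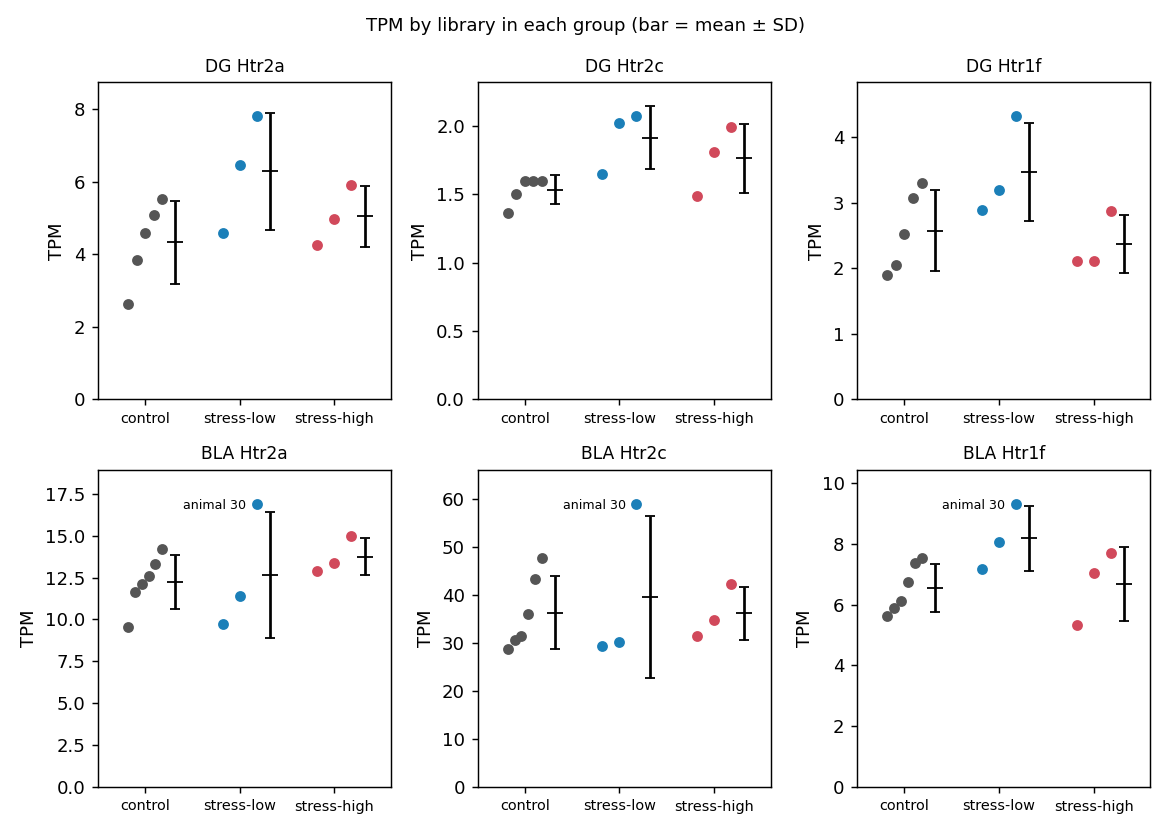
TPM (vertical axis, from 0) of Htr2a, Htr2c and Htr1f by group in the DG (top) and the BLA (bottom), with 1 point per library and a bar for mean ± SD of the group (n = 5, 3 and 3 in the DG and 6, 3 and 3 in the BLA). DG Htr2a was highest in the stress-low animals 22 and 33, at 7.80 and 6.45 TPM, and animal 30, named in the lower panels, had the highest BLA value of each of the 3 genes.

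Whether a fold change differed between the regions was tested in 1 fit of both regions on 13865 genes, among them 9 of the receptors. No gene passed an adjusted p of 0.05 in any comparison. At an unadjusted p under 0.05 there were 256, 437 and 231 genes (1.85%, 3.15% and 1.67%) for stress-low against stress-high, control against stress-low and control against stress-high, with 0, 1 and 0 receptors among them. The 1 receptor was Htr2a, whose fold change from control to stress-low animals was 0.58 in the DG and 0.01 in the BLA, and whose difference in the joint fit was 0.56 (SE 0.25, unadjusted p = 0.0383, adjusted p = 1.0). This fit treated the libraries of 1 animal as independent. A fit with the animal number as a block kept only the 9 animals with both libraries, 4 control, 2 stress-low and 3 stress-high. There, 490, 401 and 379 of 13973 genes (3.51%, 2.87% and 2.71%) and 1, 1 and 0 receptors had an unadjusted p under 0.05. In the same fit 1 gene passed the adjusted threshold, for control against stress-high. Both receptors were Htr2a, at -0.68 (SE 0.30, unadjusted p = 0.0430, adjusted p = 1.0) for stress-low against stress-high and 0.71 (SE 0.29, unadjusted p = 0.0302, adjusted p = 1.0) for control against stress-low. With all mapped libraries, 139, 321 and 182 of 13891 genes (1.0%, 2.31% and 1.31%) and 0, 0 and 1 receptors did.

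Other genes of serotonin signaling were read from 6 lists with 55 tested BLA genes and 54 tested DG genes. Of 4 further receptors, Htr6 and Htr5b were tested in both regions, while Htr3b and Htr2b were too low, with at most 0.08 and 0.27 TPM in any BLA library. Htr3b is the partner subunit of Htr3a in mixed channels. The enzymes that break serotonin down were plentiful, with Maoa at a median of 45.2 TPM in the BLA and 50.3 TPM in the DG and Maob at 30.6 TPM in the BLA. The serotonin transporter Slc6a4, made in raphe neurons, had a median of 0.040 TPM in the BLA and 0 in the DG, and Fev, a transcription factor of these neurons, was listed at 0 in every library. Tph2, the neuronal enzyme of serotonin synthesis, had a median of 0.43 TPM in the BLA and 1.61 TPM in the DG.

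None of the listed genes passed the adjusted threshold in any comparison. The share of all tested genes with an unadjusted p under 0.05 was 1.98%, 2.75% and 2.57% for BLA libraries. For DG libraries this share was 3.12%, 6.9% and 2.19%, each in the order of comparisons given next. Counts of listed genes are to be read beside these shares, and no excess of listed genes was tested for. Unadjusted p was under 0.05 in the BLA for 1, 1 and 2 of the 55 genes for stress-low against stress-high, control against stress-low and control against stress-high, and in the DG for 1, 4 and 0 of the 54. Beside those described next, these were Adarb1, an RNA editing enzyme (0.16 and 0.15 in the BLA of stress-high animals against stress-low ones and controls), and in the DG of stress-low animals against controls Cnr1, a cannabinoid receptor (0.23), and ALDH2, an aldehyde dehydrogenase (-0.22), all named after their values were seen. The gene with the smallest of these was Slc18a1, a vesicular monoamine transporter known mainly from endocrine cells. Its BLA levels were 0.75, 0.81 and 0.94 TPM in stress-low animals and 0.91 to 2.11 TPM (median 1.52) in controls, and only the stress-low value of 0.94 TPM reached into the control range. The fold change was -0.88 (SE 0.26, unadjusted p = 0.0044, adjusted p = 1.0) from 15 to 46 counts per library. Between control and stress-high animals (0.78, 1.18 and 1.13 TPM in the latter) it was -0.56 (SE 0.25, unadjusted p = 0.0437, adjusted p = 1.0). In the DG it was -0.82 (SE 0.34, unadjusted p = 0.0283, adjusted p = 0.718) between control and stress-low animals. The lists of Gi/o coupling and potassium channels, Gq/11 coupling and Gs coupling, with 30 to 31 tested genes together, held 2 such genes in all, both in the DG and named after their values were seen. Gna11, a Gq/11 alpha subunit, differed by -0.15 between control and stress-low animals, and the adenylyl cyclase Adcy8 by -0.51 between stress-low and stress-high animals.

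Punches can differ in the cells they hold, and 8 relations between a receptor and a list of cell markers were computed over libraries, and none had an adjusted p under 0.05 (Benjamini-Hochberg over the 8). In the BLA, Htr3a, which is known from a class of cortical interneurons, had a Pearson r of 0.66 (permutation p = 0.0205, adjusted p = 0.0821, n = 12) and a Spearman rho of 0.63 (permutation p = 0.0319) with the interneuron markers, and an r of 0.48 without the 2 libraries farthest out on the marker axis. The summed TPM of these markers was 1439 to 1745 in controls, 1449 to 1676 in stress-low and 1524 to 1712 in stress-high animals. With group means subtracted r was 0.80 (permutation p = 0.0019, adjusted p = 0.0151). The permutations took the values left by the subtraction as independent, which makes these p-values too small. The corresponding r in the DG was 0.44 (permutation p = 0.180, adjusted p = 0.239, rho 0.56 with permutation p = 0.0768, n = 11) and 0.67 without the 2 farthest libraries.

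BLA Htr2c had an r of 0.55 (permutation p = 0.0583, adjusted p = 0.117, rho 0.56 with permutation p = 0.0625, n = 12) with the striatal and central amygdala markers, genes of neurons that border the BLA. That relation rested on animals 30 and 35, the libraries with the most of these markers (summed TPM 851 and 866, the others 284 to 487), since r was 0.12 without them. Htr4 in the BLA behaved alike, with r = 0.58 (permutation p = 0.0466, adjusted p = 0.117, rho 0.46 with permutation p = 0.134, n = 12) and 0.18 without those libraries. BLA Htr2c also had an r of 0.70 (permutation p = 0.0118, adjusted p = 0.0821, rho 0.57 with permutation p = 0.0602, n = 12) with choroid plexus markers, cells that are very rich in Htr2c. This r was 0.67 without the 2 farthest libraries, 0.71 with group means subtracted (permutation p = 0.0105, adjusted p = 0.0419) and 0.18 with all mapped libraries. On log2(TPM + 0.1) it was 0.56, and 0.27 without the 2 farthest libraries. The p-values after the subtraction are too small here as well, because the permutations took the values left by it as independent. The summed TPM of the 8 markers was 0.67 to 1.11 in controls, 0.56 to 1.22 in stress-low and 0.71 to 1.29 in stress-high animals, with Ttr and Otx2, which define these cells, at 0 in all 12 libraries. In the DG, Htr2c had an r of -0.50 (permutation p = 0.120, adjusted p = 0.192, rho -0.50 with permutation p = 0.126, n = 11) with the choroid plexus markers and of -0.25 (permutation p = 0.463, adjusted p = 0.529, rho -0.03 with permutation p = 0.944) with markers of neighboring CA pyramidal cells. Htr1a, which led there, had an r of -0.00 with the latter (permutation p = 0.991, adjusted p = 0.991, rho -0.22 with permutation p = 0.521, n = 11). How far the cells of a punch set the receptor levels was not tested beyond these relations.

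**Figure D5:**
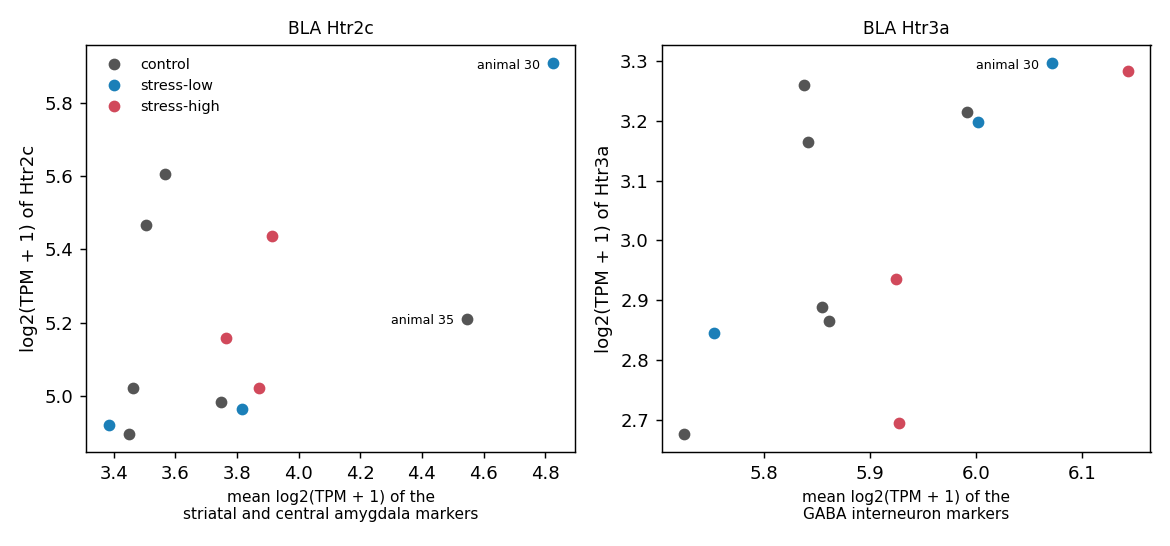
Level of Htr2c (left) and Htr3a (right) in the BLA as log2(TPM + 1) against the mean log2(TPM + 1) of the striatal and central amygdala markers (left) or the GABA interneuron markers (right), with 1 point for each of 12 libraries colored by group. Animals 30 and 35 carry the left relation (r = 0.55 with them and 0.12 without), and the right one has r = 0.66.

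Across the libraries of a region, the genes whose log2(TPM + 1) ran most alike with the 2 leading receptors were picked from all tested genes, as a description. With BLA Htr2c they were Pgrmc1 (r = 0.96), Kndc1 (0.95) and Chst11 (0.94), and with BLA Htr1b they were RGD1563441 (0.88), Vamp7 (0.87) and P4ha3 (0.86), over 12 libraries. With DG Htr1a they included the transcription factor Sox5 (0.93) and the translation factor gene Eif3l (0.90), over 11 libraries. With DG Htr4 they were RGD1307254 (0.96), an identifier with no name (0.94) and the kainate receptor gene Grik3 (0.92). These are the highest of 15230 coefficients in the BLA and 14080 in the DG, and over so few libraries the highest of that many are large by selection.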

How the data were processed

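Punches of the left BLA and dorsal DG were sequenced. Per the study's methods, the authors aligned reads to the Rn5 build with STAR 2.6.0a and quantified Ensembl genes with RSEM 1.3.1, and deposited expected counts and TPM for each gene and library. The expected counts were rounded, and 236 of the 250 receptor counts were whole to within 1e-06. No column without a mapped library was used. Rounded counts were filtered with filterByExpr (minimum count 10), scaled by TMM and tested with edgeR 4.0.16 (quasi-likelihood, 3 group means per region, two-sided, R 4.3.3), with Benjamini-Hochberg adjustment over all tested genes. The study's own software for differential expression was not used here. Alternatives used DESeq2 1.42.0, limma 3.58.1 on log2(TPM + 1) or log2(TPM + 0.1) with a mean TPM of at least 0.5, other scaling or filters, all mapped libraries and libraries left out in turn. The tests were tried on simulated data first.

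The members and lists were chosen with earlier results of these data known. By rule, fold changes were printed per comparison for receptors with an unadjusted p under 0.05 and for the one with the smallest p, and otherwise as a range, and listed pathway genes were named at an unadjusted p under 0.01. Further fold changes of receptors were added after their values were seen. For the DG fits without 1 stressed animal, the share of all genes past the threshold is not given. The 3 genes most alike with each of the 2 leading receptors of a region were those of highest Pearson r, and 1 of them is not reported here. Correlations used mean log2(TPM + 1) of marker lists and 100000 permutations. The outlying control of each region was identified on the first principal component, at 46.4 in the BLA (others -17.3 to 12.5) and 56.0 in the DG (others -13.7 to 2.28). Nothing in the labels ties libraries to separate preparations, so p-values measure the spread between animals and libraries together.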

Additional observations from a re-analysis of the deposited data

Results flagged for a closer look

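In 20 sets of libraries, the 6 BLA controls and the 5 DG controls for each of the 10 receptors, the highest and the lowest library were compared with the rest by Dixon's test at the 95% level, which chance alone passes in about 1 of 20 sets. It was passed in 2, both in BLA controls. Htr1a stood at 10.19 TPM in animal 27, while the other 5 controls had 3.47 to 5.66 TPM. Htr1d stood at 0.22 TPM in animal 17, from 2 counts, while the other 5 controls had 0.70 to 0.98 TPM.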

How the results depend on the processing

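The number of genes past an adjusted p of 0.05 was 0 in edgeR for all 6 comparisons, and stayed at 0 with RLE size factors, with no filter on low counts, with all mapped libraries and with the replicate number of the library titles as a replicate block. DESeq2 gave 2 genes for control against stress-low and 2 for control against stress-high in the BLA, while the DG counts were 3, 2 and 1 in the order stress-low against stress-high, control against stress-low and control against stress-high. A fit of the 2 groups alone gave 1 for control against stress-high in the BLA. In the BLA, limma on log2(TPM + 1) gave 1 for control against stress-low, limma on log2(TPM + 0.1) gave 2 and 2 for stress-low against stress-high and control against stress-low, and limma on all genes gave 1 and 2 for stress-low against stress-high and control against stress-high. With libraries left out in turn the count ran from 0 to 1, and it was 1 without stress-high animal 20 of the BLA, in both comparisons with stress-high animals.

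The number of receptors with an unadjusted p under 0.05 became 1 for control against stress-low in the BLA under both filtered limma fits (Htr1f, 0.28 and 0.32), and in the DG it became 2 with all mapped libraries and 0 with limma on all genes (Htr2a, 0.46, limma, unadjusted p = 0.0525). Leaving out libraries gave 0 to 1, but 1 to 3 for control against stress-low in the DG. In a replicate block fit Htr2a there kept 0.60 (edgeR, unadjusted p = 0.0157), and the title numbers did not pair the libraries (median correlation of same-numbered libraries -0.005 for BLA and -0.037 for DG libraries). For the difference between regions, blocking on the animal number used only the 9 animals with both libraries. It gave 1 receptor for stress-low against stress-high (Htr2a, -0.68), 1 for control against stress-low and 1 adjusted gene for control against stress-high. All mapped libraries gave 0 and 1 receptors for the comparisons of control with stress-low and stress-high. Subtracting group means gave r = 0.71 for BLA Htr2c with choroid plexus markers and 0.80 for Htr3a with interneuron markers. The causes were not tested.

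Groups of 3 leave intervals of fold changes wide, and low counts widen them for Htr1d and Htr4 in the BLA and for Htr1b and Htr1f in the DG.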
